A study of Mus musculus with 16 samples.

Results

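The miRNAs described here are mmu-miR-29a-3p, mmu-miR-29b-3p, mmu-miR-29c-3p, mmu-miR-103-3p, mmu-miR-107-3p and mmu-miR-195a-5p, a set that dementia research has tied to BACE1. They were chosen by name, as 1 mature entry for each of miR-29a, miR-29b, miR-29c, miR-103, miR-107 and miR-195a, and other mature entries of these miRNAs are described apart. All 6 were present among the 15159 non-coding RNA (ncRNA) entries with at least 1 read, of which 1247 carried a miRNA name and 817 the name of a mature miRNA. Small RNA was sequenced from plasma-derived extracellular vesicles (pEVs), membrane particles that cells shed into blood, with 1 library per mouse. The 16 libraries came from 8 heterozygous PS19 (PS19+/-) mice and 8 wild-type (WT) littermates.

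PS19 mice carry a human MAPT transgene with the P301S mutation under the mouse Prnp promoter, which drives expression widely in the brain, on a C57BL/6 and C3H hybrid background. WT littermates lack the transgene. All mice were about 9.6 months old, both sexes were equally represented in each genotype per the study's methods, and vesicles were precipitated from 200 µL of plasma without enrichment for a source tissue. The model develops tau pathology and carries no amyloid transgene. In a bulk vesicle preparation, fewer vesicles from one source and less of a miRNA in each vesicle cannot be told apart.

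BACE1 is the β-secretase, the membrane protease that makes the first cut in the amyloid precursor protein on the way to amyloid-β. A miRNA guides the silencing machinery to messages that pair with its seed, the bases near its 5′ end, and BACE1 mRNA has long been studied as a target of miR-29, miR-107 and members of the family of miR-15, miR-16 and miR-195. miR-29 is also known for restraining collagen and other matrix genes, miR-103 and miR-107 for their place in lipid and insulin metabolism, and miR-195 for slowing the cell cycle.

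The mature sequences are shown because they sort the set into 3 seed groups and show how little separates some members in a count table. RefSeq entries on GRCm38.p6 matched 6 of the 6 members. Capitals mark the seed, bases 2 to 8 counted from the 5′ end.
mmu-miR-29a-3p: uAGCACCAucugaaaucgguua
mmu-miR-29b-3p: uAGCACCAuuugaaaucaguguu
mmu-miR-29c-3p: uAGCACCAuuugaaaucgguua
mmu-miR-103-3p: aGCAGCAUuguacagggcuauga
mmu-miR-107-3p: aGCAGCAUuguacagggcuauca
mmu-miR-195a-5p: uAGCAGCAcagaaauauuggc

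All of the miR-29 members share the seed AGCACCA, and miR-103-3p and miR-107-3p share GCAGCAU. Counted from the 5′ end of the first-named miRNA, miR-29a-3p and miR-29c-3p differ by C10U alone, and miR-103-3p and miR-107-3p by G22C alone. miR-29a-3p and miR-29b-3p differ by C10U, G18A, U21G and A22U, and by their lengths of 22 and 23 bases. The run AGCAGCA fills positions 2 to 8 of miR-195a-5p and positions 1 to 7 of miR-103-3p, so these seeds are the same letters shifted by 1 base. How reads that fit more than one of such near-identical entries were assigned is not given in the sources used here, and the split between miR-103-3p and miR-107-3p and between miR-29a-3p and miR-29c-3p is uncertain to that extent.

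The members came from 8 hairpin genes. miR-29a-3p lies at chr6:31062673-31062694 on the minus strand, and the Mir29b-1 copy of miR-29b-3p at chr6:31063025-31063047, with 275 bases between their hairpins. The Mir29b-1 hairpin overlaps an exon of the non-coding gene Gm27019. The Mir29b-2 copy at chr1:195037091-195037113 and miR-29c-3p at chr1:195037600-195037621 lie on the plus strand with 426 bases between their hairpins. Both are in an exon of the non-coding gene A330023F24Rik and overlap an exon of the protein-coding gene Cd46 on the opposite strand. miR-103-3p has copies at chr2:131288103-131288125, in an intron of Pank2, and at chr11:35782447-35782469, in an intron of Pank3. miR-107-3p lies at chr19:34820700-34820722, in an intron of Pank1. The Pank genes encode pantothenate kinases, which start coenzyme A synthesis. miR-195a-5p lies at chr11:70235062-70235082, in no other annotated gene. A mature count cannot tell the copies of miR-29b-3p or of miR-103-3p apart.

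The link to BACE1 can be read in the letters of the mouse gene. Bace1 lies at chr9:45838580-45864399 on the plus strand of GRCm38, and its longest annotated 3′ UTR is 4104 bases. The complement of each seed was searched on the transcript strand, and capitals mark the match.
miR-29 match, UTR bases 1738 to 1744: tccttgccctcgcacTGGTGCTg
miR-195a-5p match, UTR bases 1741 to 1747: ttgccctcgcactggTGCTGCTc
miR-195a-5p match, UTR bases 267 to 273: ttgagttggaaatttTGCTGCTt
miR-103 and miR-107 match, UTR bases 2345 to 2351: ggtccactctccaaaATGCTGCc
miR-103 and miR-107 match, UTR bases 2922 to 2928: catagctagtgctggATGCTGCa

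TGGTGCT occurred once in the Bace1 3′ UTR, and ATGCTGC and TGCTGCT each occurred 2 times. The miR-29 match and a miR-195a-5p match overlapped by 4 bases. Among 1353 3′ UTR windows of the same length, 34.2% held TGGTGCT, 27.1% held ATGCTGC and 48.7% held TGCTGCT, so such matches are common in a UTR this long. A match describes these letters and is not evidence of binding.

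Reads summed over the ncRNA entries came to 36220722 to 117583663 per library. miRNA entries took 0.0645% to 7.51% of them, which came to 52562 to 1246139 miRNA reads in PS19 libraries (median 531487) and 339731 to 2720314 in WT libraries (median 723394). PS19 replicates 1, 3 and 4 held under 200000 miRNA reads each, and no WT library did. The log2 miRNA share differed by -1.16 between PS19 and WT (two-sided exact permutation p = 0.188). These sums and shares are over entries, and a read may be counted under more than 1 entry. Of the 15159 entries 11946 remained when each set with identical values was reduced to 1. Values below are the authors' normalized counts, reads divided by a size factor per library. One read was worth 0.389 to 3.83 normalized counts depending on the library, the most in PS19 replicate 4. Where a miRNA had 0 reads, up to 3 reads were allowed by counting error alone, and amplified reads without molecular identifiers make that a lower limit on the uncertainty.

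The 6 miRNAs covered a wide range of abundance. On the scale of mean log2(normalized count + 1) over the 16 libraries, miR-29a-3p stood at 8.39, miR-103-3p at 6.70, miR-107-3p at 5.03, miR-195a-5p at 2.97, miR-29b-3p at 2.47 and miR-29c-3p at 1.88. Summed over the libraries these were 8992, 2056, 819, 252, 138 and 115 reads in the same order. By mean normalized count miR-29a-3p ranked 60 of the 817 mature miRNAs and miR-29c-3p ranked 274. Even miR-29a-3p took 0.0700% of the reads summed over all miRNA entries. Mature miRNAs are of nearly equal length, 21 to 23 bases here, so no correction for length was made. Whether the library preparation and the assignment of near-identical reads recovered the members equally was not tested, and the levels are those of the reads.

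Each step in the upper part of this order exceeded the spread between libraries. miR-29a-3p exceeded miR-103-3p in 15 of 16 libraries, with a mean difference of 1.69 ± 0.234 (SE) on the log2 scale (two-sided exact sign-flip permutation p = 6.10e-05, adjusted over the 5 neighbouring pairs 0.000102). miR-103-3p exceeded miR-107-3p in 16 of 16 libraries by 1.67 ± 0.236 (exact permutation p = 3.05e-05, the smallest this design can give). miR-107-3p exceeded miR-195a-5p in 15 libraries and tied in 1, by 2.06 ± 0.442 (exact permutation p = 6.10e-05). The 3 scarce members could not be ordered. miR-195a-5p and miR-29b-3p differed by 0.50 ± 0.547 (exact permutation p = 0.368), and miR-29b-3p and miR-29c-3p by 0.59 ± 0.325 (exact permutation p = 0.0796, adjusted 0.0995). The last of these p-values was 0.00977 without PS19 replicate 2 and 0.0469 without WT replicate 2.

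**Figure D1:**
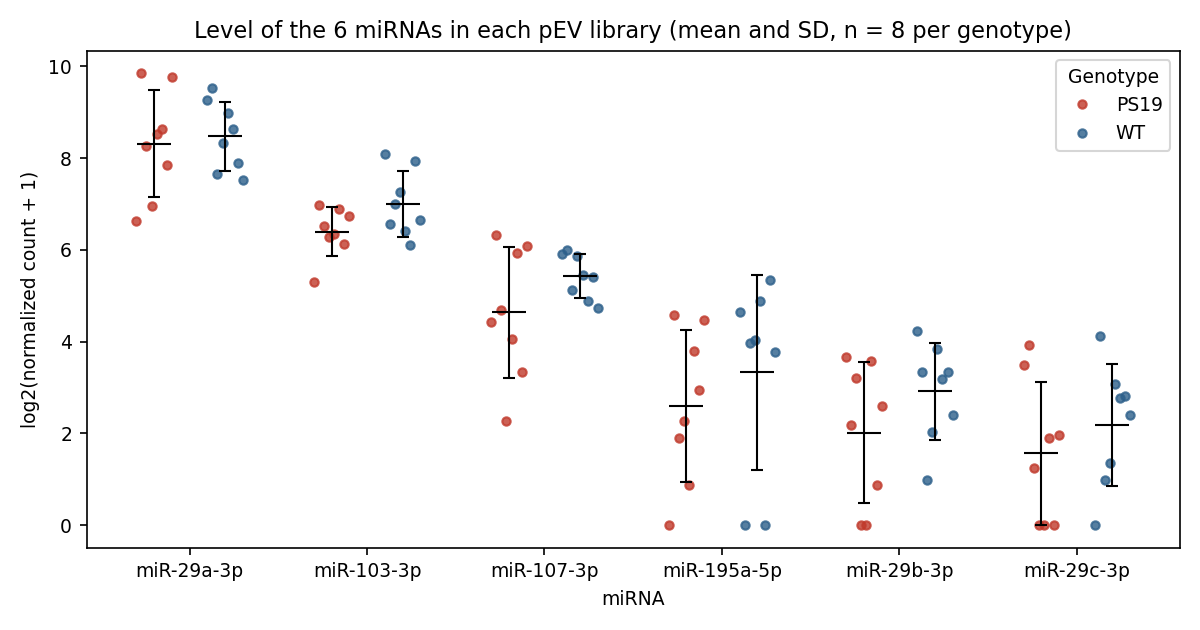
Level of each of the 6 miRNAs in each pEV library, as log2(normalized count + 1) on the y axis, with PS19 libraries in red and WT libraries in blue; bars give the mean and SD of n = 8 libraries per genotype. The genotypes overlap for all 6 miRNAs, miR-29a-3p is the most abundant with a mean of 8.39, and miR-195a-5p, miR-29b-3p and miR-29c-3p each have libraries at 0.

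The comparison the design implies is PS19 against WT. No member passed the test for a difference between the genotypes. At a limma raw p under 0.05, 0 of the 6 members were called, against 4.85% of all 15159 ncRNAs and 6.24% of the 817 mature miRNAs, and 0% of all ncRNAs passed adjustment. At the same raw threshold 0 of 6 members were called by the exact permutation test, against 3.96% of all ncRNAs, by DESeq2, against 5.42%, and by edgeR, against 15.1%. All 6 members were fitted below 0, with a median log2 fold change of -0.67, though 3 of them were above 0 under miRNA-total scaling. Of the mature miRNAs 73.1% were fitted below 0, with a median of -0.25. Of the 219 mature miRNAs averaging 10 normalized counts or more, 203 were fitted below 0, with a median of -0.64. Among all ncRNAs 50.8% were fitted below 0. Fold changes below are on the log2(normalized count + 1) scale, PS19 over WT, which understates the change of a scarce miRNA.

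miR-29a-3p is the most abundant member of its family here. Its normalized count ran from 98.5 to 920.1 in the PS19 libraries with a median of 338.8, and from 183.4 to 737.4 in the WT libraries with a median of 359.6. The highest and the lowest values of all 16 were both from PS19 mice, the highest in replicates 2 and 8 and the lowest in replicates 1 and 4. The log2 fold change was -0.17 (SE 0.509, 95% interval -1.21 to 0.88, limma p = 0.744, adjusted p = 0.928, exact permutation p = 0.734), a fold of 0.89 with an interval of 0.431 to 1.84. Its sign depended on the scaling. As a share of the miRNA reads, in RPM of those reads, it ran from 543 to 1354 with a median of 811 in PS19 and from 351 to 884 with a median of 466 in WT, and scaling by the miRNA total gave 0.71, while scaling by the library total gave -0.44.

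miR-29b-3p had few reads, 39 in all PS19 libraries together and 99 in all WT libraries. Its normalized count ran from 0 to 11.8 with a median of 4.33 in PS19, and from 0.976 to 17.7 with a median of 8.58 in WT. PS19 replicates 4 and 5 had no read of it, and every WT library had at least 1. It had a log2 fold change of -0.90 (SE 0.640, 95% interval -2.21 to 0.42, limma p = 0.172, adjusted p = 0.829, exact permutation p = 0.192). The size of this value depended on the scale, at -1.70 with a pseudocount of 0.1 and -0.25 under miRNA-total scaling.

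miR-29c-3p was the scarcest member, with 35 reads in PS19 and 80 in WT. It ran from 0 to 14.3 normalized counts with a median of 2.06 in PS19, and from 0 to 16.5 with a median of 5.03 in WT. No read was found in PS19 replicates 4, 5 and 7 or in WT replicate 1, and replicate 2 of each genotype was the highest of its group. The log2 fold change was -0.62 (SE 0.685, 95% interval -2.03 to 0.79, limma p = 0.374, adjusted p = 0.838, exact permutation p = 0.403). It was -1.36 with a pseudocount of 0.1 and -0.20 under miRNA-total scaling. For both miR-29b-3p and miR-29c-3p the interval ran past a 4-fold lower level in PS19 on one side and past 0 on the other.

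miR-103-3p ran from 38.2 to 124.5 normalized counts with a median of 85.7 in PS19 (SD 28.3), and from 67.8 to 271.3 with a median of 113.2 in WT (SD 76.3). WT replicates 1, 3, 4 and 7 stood above all PS19 libraries, and the other 4 WT libraries lay within the PS19 range. The log2 fold change was -0.61 (SE 0.436, 95% interval -1.50 to 0.29, limma p = 0.175, adjusted p = 0.829, exact permutation p = 0.0797), and the DESeq2 raw p was 0.0639. Scaling by the miRNA total turned the sign to 0.27.

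miR-107-3p spread more widely in PS19 than in WT, where miR-103-3p did the reverse, and neither difference in spread was tested. It ran from 3.83 to 78.7 normalized counts with a median of 22.6 in PS19 (SD 28.9), and from 25.6 to 62.5 with a median of 42.2 in WT (SD 14.4). PS19 replicates 2, 6 and 8 lay above the WT median, and the other 5 lay below every WT library. The lowest, PS19 replicate 4, rested on 1 read. The log2 fold change was -0.78 (SE 0.545, 95% interval -1.90 to 0.34, limma p = 0.163, adjusted p = 0.829, exact permutation p = 0.168), and it was 0.055 under miRNA-total scaling.

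miR-195a-5p ran from 0 to 22.9 normalized counts with a median of 5.26 in PS19, and from 0 to 39.5 with a median of 15.04 in WT. It had no read in PS19 replicate 1 and in WT replicates 2 and 6, and the genotypes overlapped over most of their range. Between the genotypes the log2 fold change was -0.73 (SE 0.807, 95% interval -2.39 to 0.93, limma p = 0.374, adjusted p = 0.838, exact permutation p = 0.447). All PS19 library names began with the letter G, as did those of WT replicates 2 and 4 only, and the labels do not say what the letter stands for. Among the libraries with that letter miR-195a-5p was fitted at 0.58 and the other 5 members below 0, with 0 of 6 called.

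**Figure D2:**
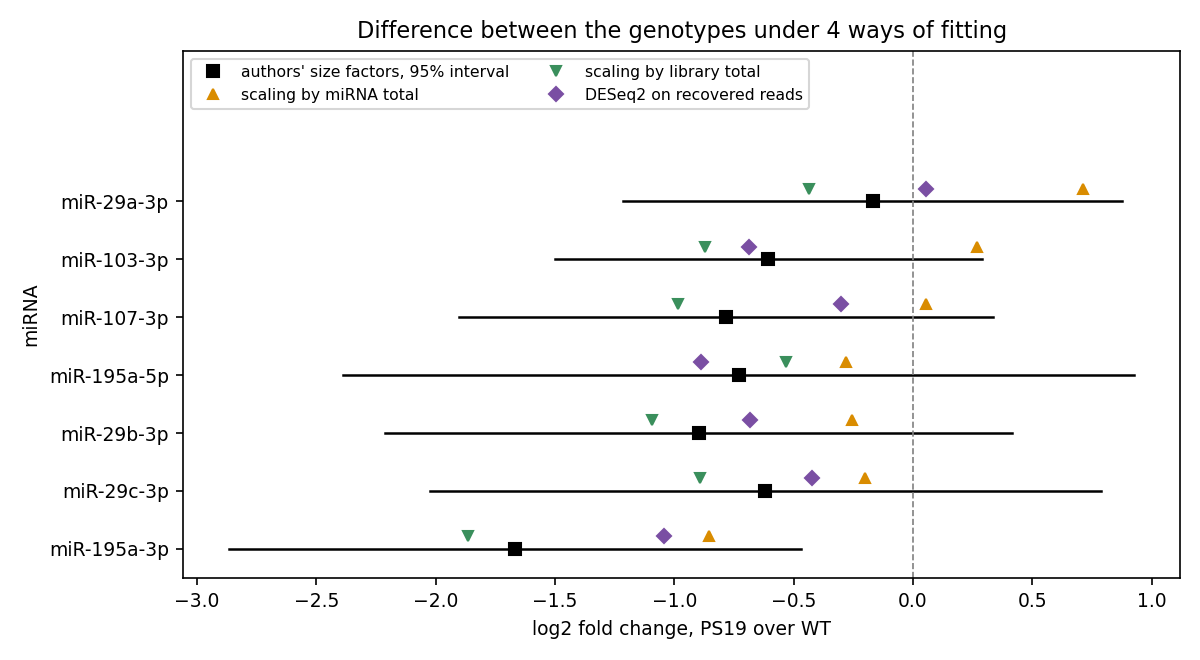
Log2 fold change of PS19 over WT on the x axis for each member and for miR-195a-3p. Squares and lines give the limma estimate on the authors' scaling with its 95% interval, and triangles and diamonds the estimates under miRNA-total scaling, library-total scaling and DESeq2. All 6 members' intervals include 0, and miR-29a-3p, miR-103-3p and miR-107-3p lie above 0 under miRNA-total scaling.

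Scaling by the miRNA total moved the median of all ncRNAs from -0.01 to 0.29 and that of all miRNA entries from -0.20 to -0.01, so on that scale the members are best read against the miRNA median. The level of miR-29a-3p ran with the miRNA share of the library. Its log2 level and the log2 miRNA share had an r of 0.86 over 16 libraries, against 0.66 for miR-107-3p and 0.14 to 0.36 for the other 4 members. These correlations are descriptions, since a miRNA's level and the miRNA share come from the same reads. With the log2 miRNA share as a covariate, miR-29a-3p was fitted at 0.44. Without PS19 replicates 1, 3 and 4 it was fitted at 0.45.

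A ratio between members with many reads in the same library depends little on its scaling, but where the scarcer member had no read the added 1 and the scaling set the ratio. None of the 5 ratios compared differed between the genotypes (adjusted p = 0.874 for each). miR-29b-3p stood at 0.0128 of miR-29a-3p in PS19 and 0.0212 in WT, a log2 difference of -0.73 (exact permutation p = 0.306). Among 16 repeats that each left out 1 library, its raw p fell under 0.05 in 1, without PS19 replicate 1. In PS19 replicate 1, 8 reads of miR-29b-3p against 67 of miR-29a-3p gave the highest ratio of all 16 libraries, and without that library the difference was -1.20 (exact permutation p = 0.0418). Without the 3 libraries under 200000 miRNA reads it was -1.51 (exact permutation p = 0.0194), a comparison added after the data were seen. Neither of these p-values is adjusted over the 5 ratios. PS19 replicates 4 and 5 had 0 reads of miR-29b-3p and replicate 7 had 1, so the added 1 weighed heavily on their ratios.

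The other 4 ratios differed by less. miR-29c-3p stood at 0.00936 of miR-29a-3p in PS19 and 0.0128 in WT (difference -0.45, exact permutation p = 0.564), and the difference was -0.97 without PS19 replicate 1, -0.88 without WT replicate 1 and -0.19 without PS19 replicate 5. miR-107-3p, which shares its seed with miR-103-3p, stood at 0.296 of it in PS19 and 0.334 in WT (difference -0.17, exact permutation p = 0.734). miR-195a-5p stood at 0.0721 of miR-103-3p in PS19 and 0.0785 in WT (difference -0.12, exact permutation p = 0.874). miR-29a-3p was 3.77 times miR-103-3p in PS19 and 2.78 times in WT (difference 0.44, exact permutation p = 0.361), and 7 of 8 PS19 libraries lay above the WT median of that ratio.

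**Figure D3:**
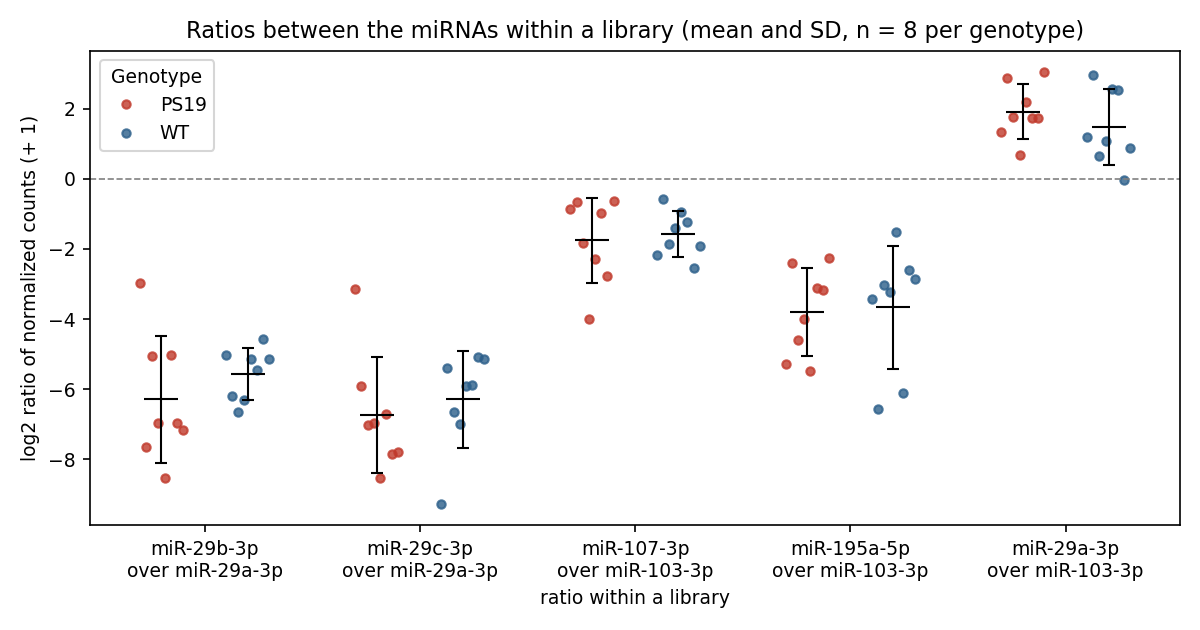
Log2 ratio of normalized counts (each + 1) within a library on the y axis for 5 pairs of members, with PS19 libraries in red and WT libraries in blue; bars give the mean and SD of n = 8 per genotype. The genotypes overlap for each ratio, and PS19 replicate 1 stands highest for both miR-29 ratios.

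Some members varied together between libraries. With 1 library per mouse, differences between mice and between libraries cannot be told apart. Over the 16 libraries, miR-29a-3p and miR-107-3p had a Pearson r of 0.72 (permutation p = 0.00147, adjusted over 15 pairs 0.0110) and a Spearman rho of 0.81 (permutation p = 0.000370), with r = 0.66 without the 2 libraries farthest from the median. miR-103-3p and miR-195a-5p had r = 0.71 (permutation p = 0.00132, adjusted 0.0110) and rho = 0.74 (permutation p = 0.00141), with r = 0.67 without the 2 farthest. The r of both pairs held the same sign within each genotype, at 0.79 in PS19 and 0.69 in WT for the first pair and at 0.83 and 0.65 for the second. The pair of seed-sharing members, miR-103-3p and miR-107-3p, had r = 0.53 (permutation p = 0.0388, adjusted 0.0970) and rho = 0.64 (permutation p = 0.00904).

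On the share of miRNA reads a different set of pairs stood out. There miR-29a-3p and miR-107-3p had r = 0.43 (permutation p = 0.0983) and miR-103-3p and miR-195a-5p r = 0.26 (permutation p = 0.332). miR-107-3p and miR-29b-3p had r = 0.81 (permutation p = 0.000210, adjusted 0.00315), miR-107-3p and miR-29c-3p r = 0.77 (permutation p = 0.000520, adjusted 0.00390), and miR-29b-3p and miR-29c-3p r = 0.74 (permutation p = 0.000990, adjusted 0.00495). Their rho values were 0.60, 0.54 and 0.57. PS19 replicate 1, with 112.2 and 98.2 RPM of the miRNA reads for miR-29b-3p and miR-29c-3p, from 8 and 7 reads, weighed most on these values, and without it r was 0.73, 0.68 and 0.62. On the normalized counts miR-107-3p and miR-29b-3p had r = 0.64 (permutation p = 0.00735, adjusted 0.0367) and rho = 0.42, and this relation rested on the 2 farthest libraries, since r was 0.34 without them.

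**Figure D4:**
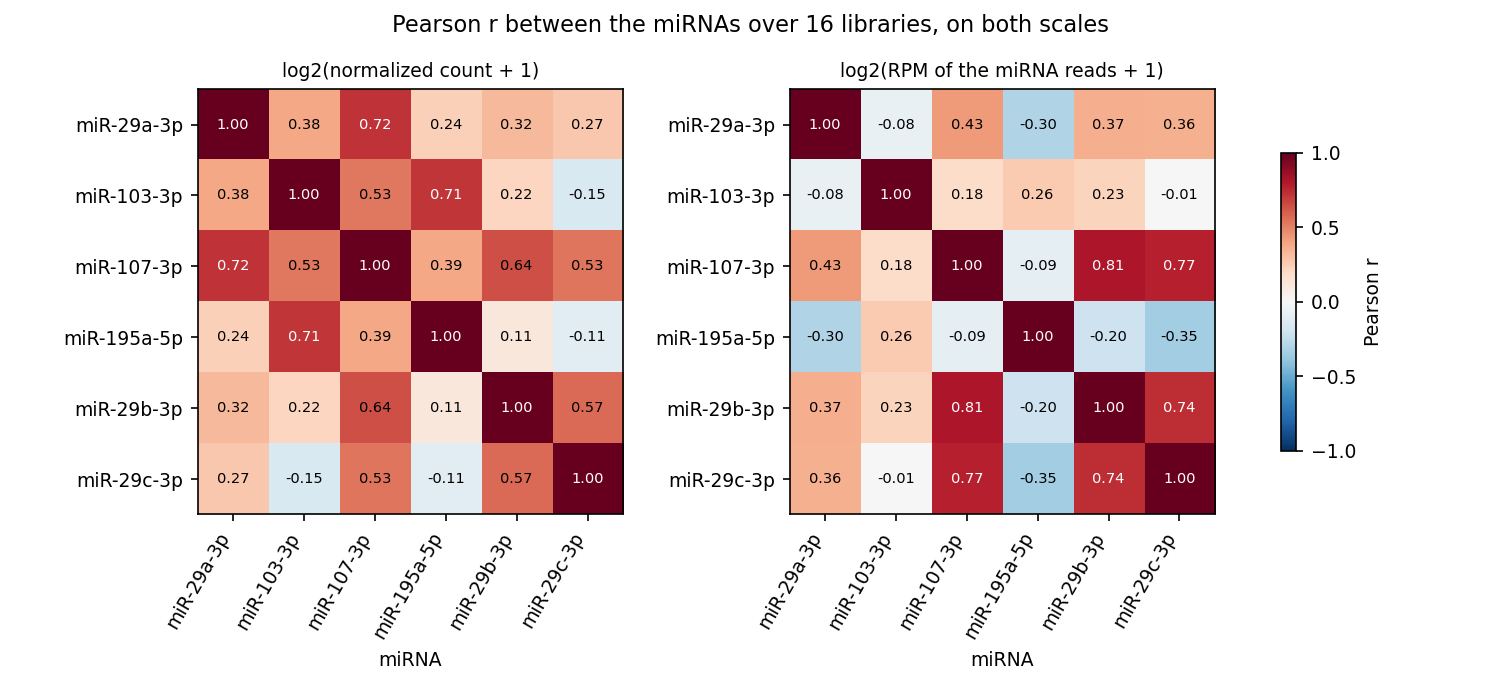
Pearson r between the 6 miRNAs over 16 libraries, as colour and number, on log2(normalized count + 1) on the left and on log2(RPM of the miRNA reads + 1) on the right. miR-29a-3p with miR-107-3p falls from 0.72 to 0.43 between the scales, and miR-29b-3p with miR-29c-3p moves from 0.57 to 0.74.

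The mature miRNAs whose levels ran closest to each member were found among those averaging 10 or more normalized counts, with r over the same 16 libraries as a description. miR-29a-3p lay closest to miR-146a-5p (r = 0.92), miR-22-3p and miR-24-3p (both 0.90). miR-103-3p lay closest to let-7g-5p (0.88), miR-222-3p (0.88) and miR-152-3p (0.87). miR-107-3p lay closest to miR-378d (0.90), miR-421-3p (0.87) and miR-532-5p (0.85). The scarce members had weaker neighbours. miR-29b-3p and miR-29c-3p both lay closest to miR-421-3p (0.79 and 0.54) with miR-107-3p among their 3 nearest, and miR-195a-5p lay closest to miR-103-3p (0.71).

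A hairpin yields an arm from each side, and 4 of the 8 other arms of these hairpins were in the table. The other arm of miR-195a, miR-195a-3p, was the only abundant one. Of those past the raw threshold for genotype it alone had enough reads for a fold, and it did not pass adjustment. It is shown with its seed in capitals, followed by the hairpin at chr11:70235042-70235135 on the plus strand of GRCm38.p6 with both mature arms in capitals.
mmu-miR-195a-3p: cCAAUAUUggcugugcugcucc
Mir195a hairpin: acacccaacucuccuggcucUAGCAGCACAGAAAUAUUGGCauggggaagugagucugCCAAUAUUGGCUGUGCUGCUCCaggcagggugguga

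miR-195a-3p had more reads than miR-195a-5p, 1117 against 252, and exceeded it in 14 of 16 libraries, tied in 1 and fell short in 1. The mean difference was 2.24 ± 1.93 (SD) on the log2 scale (two-sided exact sign-flip permutation p = 0.000122), a comparison added after the levels were seen. In 6 of the WT libraries miR-195a-5p stood at 0.244 to 0.513 of miR-195a-3p. WT replicate 2, which held the most miRNA reads of all libraries, had 244 reads of miR-195a-3p and 0 of miR-195a-5p, so that miR-195a-5p stood below 1.23 normalized counts at the limit of 3 reads. WT replicate 6 had 90 and 0 reads, and PS19 replicate 5 had 70 and 1. These libraries were picked out after their values were seen.

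**Figure D5:**
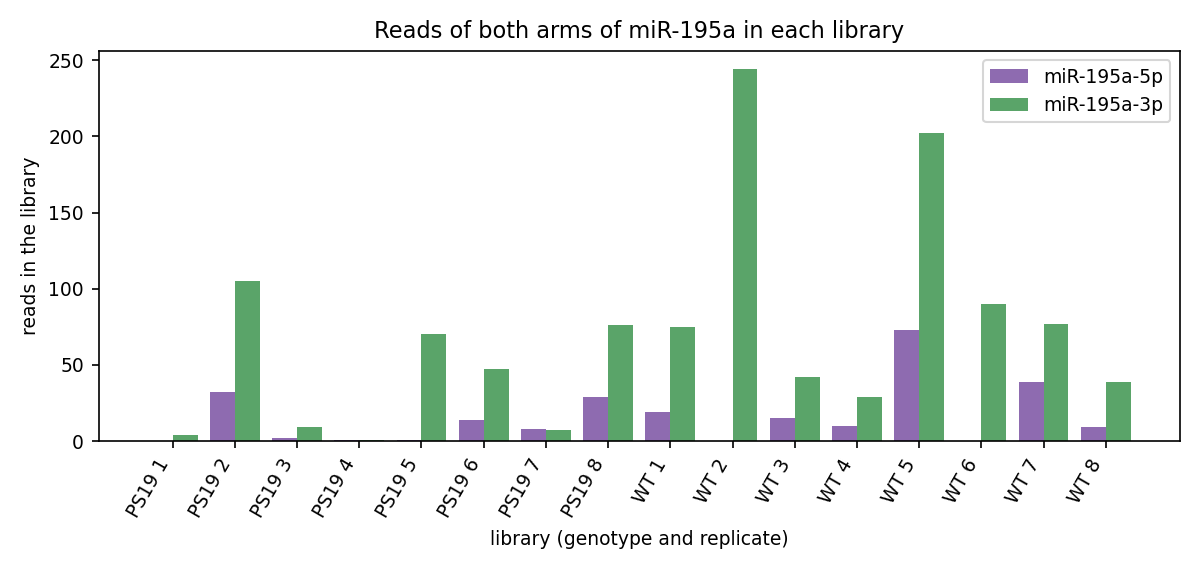
Reads of miR-195a-5p (purple) and miR-195a-3p (green) on the y axis in each of the 16 libraries, by genotype and replicate on the x axis. miR-195a-3p exceeds miR-195a-5p in 14 libraries, and WT replicates 2 and 6 have 244 and 90 reads of miR-195a-3p but none of miR-195a-5p.

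miR-195a-3p ran from 3.83 to 75.1 normalized counts with a median of 27.8 in PS19, and from 41.0 to 100.4 with a median of 66.7 in WT. PS19 replicates 1, 3, 4 and 7 lay below every WT library, and replicates 1, 3 and 4 were those under 200000 miRNA reads. The other 4 PS19 libraries lay within the WT range. It was lower in PS19 at the raw threshold, with a log2 fold change of -1.67 (SE 0.584, 95% interval -2.87 to -0.47, limma p = 0.00818, exact permutation p = 0.0207), a direction in which 5.51% of the mature miRNAs were called, or 9.59% of the 219 averaging 10 normalized counts or more, and it did not pass adjustment over all ncRNAs (adjusted p = 0.829). The call held in each of 16 fits that left out 1 library. It was lost with DESeq2 (-1.04), with edgeR (-1.14), under miRNA-total scaling (-0.86), among the libraries with the letter G (-1.72) and without the libraries under 200000 miRNA reads (-0.80). Its log2 level had an r of 0.78 with the log2 miRNA share, and with that share as a covariate the log2 fold change was -1.03 (SE 0.473) and the call at the raw threshold was kept. The ratio of the arms differed by 0.94 between the genotypes (exact permutation p = 0.332).

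The remaining arms were at the limit of detection. miR-29b-1-5p had 0 reads in PS19 and 8 in WT, at most 3 in a library, and passed the raw threshold (limma p = 0.0176, adjusted p = 0.829, exact permutation p = 0.0256), but both genotypes were within the limit of 3 reads per library, so no fold is given. miR-29b-2-5p had 2 reads in all and miR-29c-5p had 1. Of the 8 hairpin entries 7 were in the table, and the mir-29a entry alone was abundant, with 3361 reads against 8992 of miR-29a-3p. Its mean normalized count was 136.4 (SD 105.3) over 8 PS19 libraries and 168.1 (SD 91.3) over 8 WT libraries. The log2 fold change was -0.52 (SE 0.502, limma p = 0.309, adjusted p = 0.829, exact permutation p = 0.286), and it was 0.35 under miRNA-total scaling. It stood at 0.333 of miR-29a-3p in PS19 and 0.426 in WT, and fell below miR-29a-3p in all 16 libraries. The difference of that ratio was -0.35 (exact permutation p = 0.0789), with p = 0.0183 without WT replicate 6 and 0.0312 without PS19 replicate 5.

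The relatives of the members were tested in the same fit. Of 6 other entries of the family of miR-15, miR-16 and miR-195 and its cluster, 4 were in the table and 0 were called, against 6.24% of the mature miRNAs. Their median log2 fold change was -0.28, and it was 0.17 under miRNA-total scaling, 0.11 with DESeq2 and -0.084 with edgeR. miR-16-5p, which shares the seed of miR-195a-5p and is abundant in red cells, averaged 107.6 normalized counts in PS19 and 166.5 in WT (log2 fold change -0.77, SE 0.534, limma adjusted p = 0.829, exact permutation p = 0.170). miR-15b-5p averaged 45.0 and 67.5 (-0.62, exact permutation p = 0.204), and miR-15a-5p 7.18 and 3.91 (0.28, exact permutation p = 0.736). miR-497a-5p, encoded beside miR-195a, had 3 reads in all.

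Of 11 other miRNAs that dementia research has tied to BACE1, all were in the table and 0 were called, against 6.24% of the mature miRNAs. Of the 11, 9 were fitted below 0 with a median of -0.64, as were 73.1% of the mature miRNAs, with a median of -0.25. Under miRNA-total scaling 3 were below 0 with a median of 0.098. On that scaling 1 passed the raw threshold as higher, as did 22 of all 1247 miRNA entries. This list shares 2 entries with the one before, miR-15b-5p and miR-16-5p, both among those fitted below 0. miR-9-5p, a miRNA enriched in neurons, had a median of 175.3 normalized counts in PS19 and 419.2 in WT (exact permutation p = 0.248). Single libraries weighed on its means, which were 537.4 in PS19, or 271.7 without PS19 replicate 4, and 772.2 in WT, or 537.5 without WT replicate 7. miR-328-3p averaged 226.1 normalized counts in PS19 and 322.1 in WT (exact permutation p = 0.138), and miR-186-5p 33.9 and 65.5, with a log2 fold change of -1.08 (limma adjusted p = 0.829, exact permutation p = 0.0718). miR-339-5p stood on the other side, at 10.03 and 3.51, with a log2 fold change of 1.17 (limma adjusted p = 0.829, exact permutation p = 0.121). miR-124-3p, also neuronal, had medians of 16.3 and 29.8 (exact permutation p = 0.564), and means of 39.0 and 41.7 that were 14.96 without PS19 replicate 4 and 26.2 without WT replicate 7.

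Markers of other sources of plasma vesicles were measured in the same fit. Of 6 red cell miRNAs 2 were lower in PS19, miR-486a-5p (log2 fold change -1.41, limma p = 0.0410, exact permutation p = 0.0791) and miR-486b-5p (-1.42, limma p = 0.0400, exact permutation p = 0.0785), against 5.51% of all mature miRNAs called lower. The reads of miR-486b-5p were 0.971 to 1.05 times those of miR-486a-5p in each library, so these entries are in effect 1 measurement. The red cell list, which also holds miR-16-5p, summed to 3532 to 88346 normalized counts in PS19 and 34078 to 186707 in WT. Of 3 liver miRNAs miR-122-5p was lower (-1.57, limma p = 0.0387, exact permutation p = 0.0805), with list sums of 8502 to 211904 and 26564 to 386443. Of 3 muscle miRNAs miR-206-3p was higher (1.79, limma p = 0.0361, exact permutation p = 0.0903), against 6 of 817 mature miRNAs called higher. The muscle list summed to 1733 to 94150 and 4513 to 64139. miR-206-3p itself ran from 176.4 to 46765 normalized counts with a median of 2943 in PS19, and from 331.4 to 3630 with a median of 1423 in WT. By limma none of the 3 platelet and myeloid, 2 endothelial or 4 neuronal miRNAs (miR-9-5p and miR-124-3p among them) was called, with sums of 23.0 to 218.1 and 34.1 to 147.4, of 515.8 to 2262 and 1444 to 3373, and of 982.0 to 10024 and 2208 to 10423. The endothelial miR-126a-3p, at -0.75, did pass the raw threshold by the exact permutation test (p = 0.0169) and with DESeq2 (-0.66, p = 0.0461), and stood at 0.13 under miRNA-total scaling. On that scaling the myeloid miR-223-3p passed as higher (1.57), and the muscle miR-133a-3p passed as higher there and with DESeq2 (1.82), but stood at -0.30 with edgeR without passing. No marker passed adjustment by limma (adjusted p = 0.829 for those called), while miR-206-3p passed it with DESeq2 (adjusted p = 0.0112) and edgeR (adjusted p = 0.00120), the only marker to do so. The 4 markers called by limma kept their sign under each scaling and count test, but their calls did not all hold. miR-486a-5p and miR-486b-5p passed the raw threshold under neither other scaling and by neither count test. They stood at -1.68 and -1.69 under library-total scaling and at -0.52 and -0.53 under miRNA-total scaling. Their values in the count tests lay between these. miR-122-5p passed under library-total scaling (-1.84) and with edgeR (-1.48), and not under miRNA-total scaling (-0.69) or with DESeq2 (-1.34). miR-206-3p passed under miRNA-total scaling (2.67), with DESeq2 (2.97) and with edgeR (2.97), and not under library-total scaling (1.52). Each list held a marker with reads in all 16 libraries, and miR-144-3p, miR-144-5p, miR-142a-5p and miR-138-5p were the markers with a library at 0. The part of these sources in the members' levels was not tested.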

How the data were processed

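The 16 small ncRNA libraries were made from pEVs, 1 per mouse, with 8 mice of each genotype. Per the labels and the study's methods, the authors prepared them with a NEBNext small RNA kit, aligned reads with STAR 2.5.3a to mm10, assigned them to ncRNAs with COMPSRA and ran DESeq2 1.42.1. The deposited signal values are the authors' counts divided by a DESeq2 size factor per library. Dividing by the smallest positive value of each library gave whole reads for 100% of values within 1e-06 of a read. The 6 columns of the authors' own comparison (mean, fold change, error, statistic, p-value and adjusted p-value) were not used.

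Normalized counts were tested as log2(value + 1) with limma 3.58.1 (lmFit and eBayes with a trend, R 4.3.3) over all 15159 ncRNAs with a read, at a raw p of 0.05 as in the study and with Benjamini-Hochberg adjustment. Single values were also given two-sided exact permutation tests, and correlations 100000 permutations. Count tests on the recovered reads were alternatives: DESeq2 1.42.0 called 822 ncRNAs at the raw threshold (113 adjusted) and edgeR 4.0.16 called 2295 (318 adjusted), against 735 (0 adjusted) by limma. The limma, DESeq2 and edgeR tests were checked on simulated data. Names with mir or let counted as miRNAs. Tests within python 3.11.15 used numpy 2.4.6 and scipy 1.17.1.

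The 6 miRNAs, their relatives, arms and hairpin entries, and the marker lists were named by rule, and all of these were chosen with earlier results of these data known. The 3 miRNAs most like each were chosen by Pearson r among mature miRNAs with a mean of 10 or more. Positions and sequences are from RefSeq on GRCm38.p6, and the Bace1 3′ UTR and host genes from GENCODE on GRCm38, the assembly also called mm10. Alternatives covered the test, scaling, filters on low values, pseudocount, replicate block, library left out, library-name letter, identical entries, array weights and the miRNA share as covariate. Replicates are mice, and intervals on read numbers cover counting error only.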

Additional observations from a re-analysis of the deposited data

Results flagged for a closer look

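The ratio of miR-29c-3p to miR-29a-3p in WT mice held a library apart from the others, which rests on a count of 0. WT replicate 1 had 0 reads of miR-29c-3p beside 485 of miR-29a-3p, for a log2 ratio of -9.27 against a WT median of -5.89. Its gap to the nearest of the other 7 libraries was 0.545 of the whole range of the group, above the 95% limit of Dixon's test for a group of 8. Such a test is passed by chance in about 5 of 100 groups, and several groups were examined here. With 0 reads the ratio is set by the added 1. At the limit of 3 reads, worth 3.803 normalized counts in that library, the log2 ratio would be -7.002 beside -6.98 in WT replicate 4, and the gap 0.0093 of the range, so the library is not shown to stand apart.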

How the results depend on the processing

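The number of ncRNAs past the raw threshold was 735 and moved to 2295 with edgeR, 444 under library-total scaling, 1129 under miRNA-total scaling and 230 when only ncRNAs averaging 10 or more were kept, and ran from 567 to 846 with each library left out. Higher and lower calls split 412 to 323, and 146 to 298 under library-total scaling, 1023 to 106 under miRNA-total scaling and 139 to 505 among libraries with the letter G. No member was called under any alternative. miR-29a-3p changed sign with DESeq2 (0.053), miRNA-total scaling (0.71), array weights (0.10), the miRNA share as covariate (0.44) and without the libraries under 200000 miRNA reads (0.45), and ran from -0.39 to 0.071 with each library left out. miRNA-total scaling turned miR-103-3p to 0.27, miR-107-3p to 0.055 and the mir-29a entry to 0.35, and the last was 0.045 with the miRNA share as covariate and 0.10 without the libraries under 200000 miRNA reads. miR-195a-5p was 0.58 among libraries with the letter G. miR-29b-3p and miR-29c-3p gave no value at a mean of at least 10. The causes were not tested.

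Among the ratios, miR-29b-3p over miR-29a-3p was -1.51 without the libraries under 200000 miRNA reads and ran from -1.20 to -0.41 with each library left out. miR-29c-3p over miR-29a-3p was -1.07 without those libraries and ran from -0.97 to -0.19. miR-107-3p over miR-103-3p was 0.11 and ran from -0.33 to 0.15. miR-195a-5p over miR-103-3p was 0.38 without those libraries, 0.090 with a pseudocount of 0.1 and 1.10 with the letter G, and ran from -0.54 to 0.18. miR-29a-3p over miR-103-3p was -0.10 with the letter G. The level of miR-29b-3p minus miR-29c-3p ran from 0.35 to 0.74. On the share of miRNA reads, r was -0.076 for miR-29a-3p with miR-103-3p, 0.43 with miR-107-3p and -0.30 with miR-195a-5p, 0.18 for miR-103-3p with miR-107-3p and 0.26 with miR-195a-5p, and -0.093 for miR-195a-5p with miR-107-3p and -0.20 with miR-29b-3p.

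The labels do not say that mice of equal replicate number are related. Same-numbered libraries had r of -0.18 to 0.47 over 2625 ncRNAs, and 1 of 8 matched its own number best, so they were not treated as paired. With a replicate block 685 ncRNAs were called, and no member's call changed. Depth limits the scarce members most: miR-29b-3p, miR-29c-3p and miR-195a-5p had 3 or fewer reads in 6, 9 and 6 of the 16 libraries.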

Other observations

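Some circRNA entries ran almost read for read with 2 of the miRNAs, which was noticed after the values were seen. mmu_circ_0002999 had 2091 reads against 2056 of miR-103-3p, with equal reads in 8 of 16 libraries, a difference of -5 to 15 reads in the others and r = 0.995 on the log2 scale. mmu_circ_0007710 and mmu_circ_0007711 each had 847 reads against 819 of miR-107-3p, equal in 5 libraries and 0 to 7 reads higher, with r = 0.999. mmu_circ_0007709 had 859 reads, 0 to 11 higher, with r = 0.995. None of these entries had values identical to those of the miRNA. The positions of these circRNAs were not analysed here. No entry reached an r of 0.98 with miR-29a-3p, miR-29b-3p, miR-29c-3p or miR-195a-5p.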
